A study of Mus musculus with 6 samples.

Results

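The simple epithelial keratins measured here are the 6 genes Krt7, Krt8, Krt18, Krt19, Krt20 and Krt23, chosen by gene symbol among the 23099 symbols of the deposited tables. Each has a single row in every table. RNA was measured by stranded sequencing of polyadenylated RNA from whole pancreas of 8-week-old mice, in 3 Ela1-Myc libraries and 3 wild-type (WT) libraries. Ela1-Myc mice express the growth-promoting transcription factor Myc from the elastase 1 promoter, which is active in the acinar cells that make digestive enzymes, so the transgene is aimed at acinar cells and not at ducts. The sources used here give no strain, no sex and no number of animals behind each library. The comparison of Ela1-Myc with WT asks how the adult pancreas differs when Myc stays active in acinar cells.

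Keratins are the intermediate filament proteins of epithelial cells. A filament forms only when a type II keratin (here Krt7 or Krt8) pairs with a type I keratin (here Krt18, Krt19, Krt20 or Krt23) in equal amounts, and an unpaired partner is normally degraded as protein. Krt8 and Krt18 are the main pair of both acinar and duct cells, Krt7 and Krt19 are duct keratins of the pancreas, Krt20 is best known from intestinal epithelium and urothelium, and Krt23 is a less studied type I keratin of glandular epithelia.

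Levels are the authors' adjusted FPKM, a fragment count scaled to transcript length and library, after division by 100000. Sequencing depth is unknown. The values are per length, so levels of different keratins can be set side by side. An exact 0 in the WT libraries is no proof of absence. The glycolysis gene Gapdh had 347, 465 and 343 in Ela1-Myc. In WT it had 69.2 in replicate 2, with a listed 0 in replicates 1 and 3. Ins2, the main insulin gene, had 1950, 2152 and 2381 in Ela1-Myc. In WT it had 1972 and 322 in replicates 2 and 3, with a listed 0 in replicate 1. Of the 8802 genes tested, 0, 29 and 13 were listed at 0 in Ela1-Myc replicates 1 to 3, against 1061, 592 and 1426 in WT replicates 1 to 3. Myc itself had 52.0, 34.4 and 34.2 in Ela1-Myc, against 4.10 in WT replicate 2, with a listed 0 in the other WT libraries; transgene and endogenous reads are not separated. The RNA integrity number (RIN) was 8.8, 7.2 and 8.3 in Ela1-Myc and 7.3, 7.3 and 7.1 in WT. The stated minimum is 8.5, which Ela1-Myc replicate 1 reaches and every other library falls below. All 14 markers of acinar cells on the list used here were above 0 in every library, so each library carries the RNA of its labelled tissue.

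Krt8 (chromosome 15, 101996711 to 102004342, GRCm38) and Krt18 (chromosome 15, 102028216 to 102032026) are neighbours whose start sites lie 23.9 kb apart and point away from each other. Krt7 (chromosome 15, 101412403 to 101427806) lies in the same keratin cluster, while Krt19 (chromosome 11, 100140810 to 100145926), Krt20 (chromosome 11, 99428385 to 99438153) and Krt23 (chromosome 11, 99477973 to 99493120) lie in the type I cluster. Gene positions are those of RefSeq on GRCm38.p6. RefSeq start regions were matched for Krt7, Krt8, Krt18, Krt20 and Krt23. The 250 bases before the start of Krt8 and of Krt18 are shown because the results below turn on the ratio of these partner genes, and those of Krt23 because they hold the E-box that MYC and MAX bind, CACGTG, in capitals.
Krt8, chr15:102004343-102004592, minus strand: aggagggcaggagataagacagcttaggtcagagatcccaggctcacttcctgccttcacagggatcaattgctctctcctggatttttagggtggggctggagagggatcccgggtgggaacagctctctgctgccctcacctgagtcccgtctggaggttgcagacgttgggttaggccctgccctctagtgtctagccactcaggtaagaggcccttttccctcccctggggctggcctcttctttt
Krt18, chr15:102027966-102028215, plus strand: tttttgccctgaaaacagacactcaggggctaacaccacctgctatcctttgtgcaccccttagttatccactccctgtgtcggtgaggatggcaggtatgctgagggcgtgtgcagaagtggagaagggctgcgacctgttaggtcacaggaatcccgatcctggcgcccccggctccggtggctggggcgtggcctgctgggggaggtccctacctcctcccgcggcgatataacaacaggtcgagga
Krt23, chr11:99493121-99493370, minus strand: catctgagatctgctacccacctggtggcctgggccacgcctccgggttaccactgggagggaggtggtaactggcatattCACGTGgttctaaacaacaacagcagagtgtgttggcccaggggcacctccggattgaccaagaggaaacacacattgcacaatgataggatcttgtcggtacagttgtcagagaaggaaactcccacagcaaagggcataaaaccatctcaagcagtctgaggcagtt

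The CACGTG of Krt23 begins 169 bases before the start site. Both strands were searched for CACGTG and for the AP-1 motif TGANTCA, and the sense strand for TATAAA. Among the 5 keratin windows CACGTG was found in that of Krt23 and TATAAA in that of Krt20, 29 bases before its start, and TGANTCA in none. Over the same 250 bases, 6.02% of 32851 RefSeq promoters hold CACGTG, 6.75% hold TGANTCA and 7.59% hold TATAAA. A match of letters describes the window and is not evidence of binding. The windows of Krt8, Krt18 and Krt23 are 58.0%, 60.4% and 52.8% G and C, against a median of 52.4% over all promoters.

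Krt8 and Krt18 were the most abundant of the 6 genes in every library, and both stood higher in all 3 Ela1-Myc libraries than in any WT library on the deposited scale. In bulk tissue, a change in the number of cells of a type and a change in their RNA per cell cannot be told apart. Krt8 had 109.1, 90.1 and 89.3 in Ela1-Myc, against 3.52, 57.4 and 10.8 in WT. The Ela1-Myc libraries lie close together and the WT libraries are spread widely, with WT replicate 2 the nearest to Ela1-Myc. Krt8 was higher by 2.73 ± 0.868 log2 units (SE; limma adjusted p = 0.0127). Krt18 had 109.97, 85.5 and 84.5 in Ela1-Myc, against 15.1, 74.4 and 33.9 in WT. Its groups do not overlap either, but the lowest Ela1-Myc value is only 1.14 times the highest WT value, and the log2 change of 1.43 ± 0.779 (SE) did not pass (limma adjusted p = 0.110). The Krt8 call was lost without Ela1-Myc replicate 1 (limma adjusted p = 0.0628), without Ela1-Myc replicate 3 (0.0559) and without WT replicate 1 (0.0681), while Krt18 passed without WT replicate 2 (log2 change 1.98, limma adjusted p = 0.00377) and fell to a log2 change of 0.87 without WT replicate 1.

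The duct keratins Krt7 and Krt19 were also higher on the deposited scale. Krt19 had 13.6, 24.4 and 21.6 in Ela1-Myc, against 2.69, 13.1 and 4.19 in WT. Ela1-Myc replicate 1 and WT replicate 2 nearly meet, at a ratio of 1.04. Krt19 was higher by 1.65 ± 0.585 log2 units (SE; limma adjusted p = 0.0215). Krt7, the type II duct keratin, had 4.12, 7.46 and 6.03 in Ela1-Myc, against 1.58 and 0.358 in WT replicates 2 and 3, and was listed at 0 in WT replicate 1. The lowest Ela1-Myc value was 2.61 times the highest WT value, the widest gap between the groups among the 6 keratins. The limma adjusted p of 0.000293 takes the listed 0 as a measured value. With WT replicate 1 left out, Krt7 was higher by 1.85 ± 0.376 log2 units (SE; limma adjusted p = 0.00176). The Krt19 call was lost without Ela1-Myc replicate 2 (limma adjusted p = 0.0778), Ela1-Myc replicate 3 (0.0920), WT replicate 1 (0.0923) or WT replicate 3 (0.0504).

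Krt23 and Krt20 were low and their groups overlapped. Krt23 had 2.18, 3.69 and 4.21 in Ela1-Myc, against 1.27, 3.45 and 2.46 in WT, a log2 change of 0.39 ± 0.357 (SE) that did not pass (limma adjusted p = 0.327). Krt20 had 0.164, 0.277 and 0.284 in Ela1-Myc, against 0.0373 and 0.186 in WT replicates 2 and 3, and was listed at 0 in WT replicate 1. Its mean was below the minimum of 1 set for testing, so it was not tested. In the order of levels within a library, Krt8 and Krt18 came first, followed by Krt19, in every library, and Krt20 came last, sharing that place with Krt7 in WT replicate 1 where both are listed at 0. Krt7 stood above Krt23 in all 3 Ela1-Myc libraries and below it in all 3 WT libraries. Krt8 and Krt18 differ in level within Ela1-Myc by less than their spread over the libraries.

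**Figure D1:**
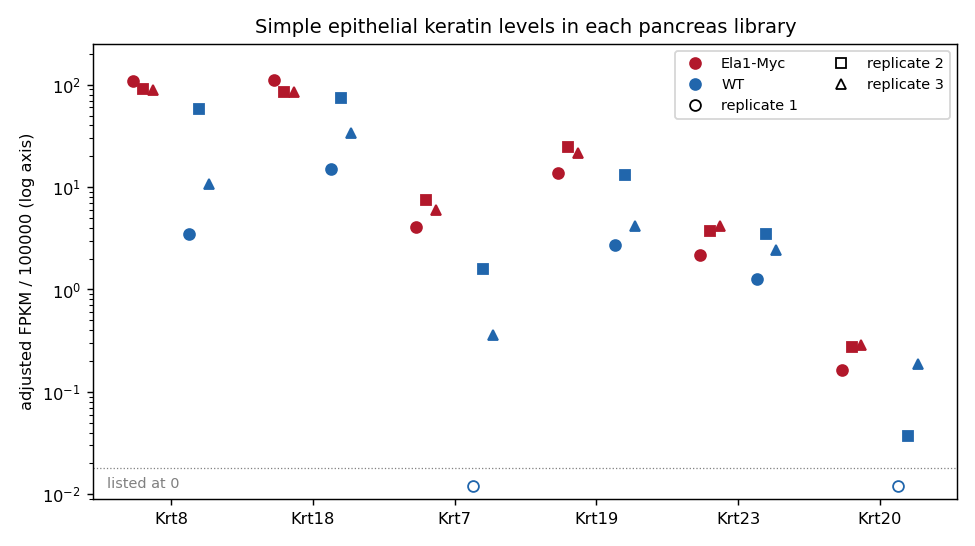
Level of each simple epithelial keratin (adjusted FPKM divided by 100000, log axis) in the 3 Ela1-Myc libraries (red) and the 3 WT libraries (blue); each symbol is 1 library and open symbols below the dotted line are values listed at 0. Krt8, Krt18, Krt7 and Krt19 lie higher in every Ela1-Myc library than in any WT library, and the WT libraries are spread more widely.

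These counts have to be read against the whole table. Of the 5 keratins that passed the filter 3 were called higher, while 70.2% of all tested genes were called higher on the deposited scale. The groups were separate, with Ela1-Myc the higher, for 4 of these 5 keratins and for 75.3% of the tested genes. Calls in the lower direction were few, at 0.239% of tested genes, and so were genes with every Ela1-Myc value under every WT value, at 0.534%. The median log2 change was 1.65 over the 5 tested keratins and 1.22 over all tested genes. A higher level in Ela1-Myc was the common state of a gene on this scale. With Ela1-Myc replicate 3 or WT replicate 1 left out, 1 of the 5 keratins, Krt7, was called higher.

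A second scale, on which each library is divided by the median ratio of its genes to their geometric mean over the libraries (median of ratios), set the median tested gene to a log2 change of 0.22. On it 1 of 5 tested keratins was called higher and 4 were not called, while 17.0% of the tested genes were called higher and 7.08% lower. Krt8 had 68.8, 59.5 and 43.3 in Ela1-Myc, against 8.80, 66.8 and 18.4 in WT, and its groups overlapped because WT replicate 2 lay within the Ela1-Myc range (log2 change 1.29 ± 0.709 SE, limma adjusted p = 0.217). Without WT replicate 2 the scaled log2 change of Krt8 was 2.04 and passed (limma adjusted p = 0.0215). Krt18 had 69.4, 56.4 and 41.0 in Ela1-Myc, against 37.8, 86.5 and 57.6 in WT, and its sign turned to -0.077 ± 0.440 (SE; limma adjusted p = 0.908). Krt19 had 8.58, 16.1 and 10.5 in Ela1-Myc, against 6.73, 15.2 and 7.13 in WT, with a log2 change of 0.30 ± 0.402 (SE; limma adjusted p = 0.600). A p above the threshold does not show that the levels were equal.

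Krt7 was the keratin called on the median-of-ratios scale, with 2.60, 4.93 and 2.92 in Ela1-Myc against 1.84 and 0.609 in WT replicates 2 and 3, and a listed 0 in WT replicate 1 (limma adjusted p = 0.0464, which takes the 0 as measured). Its groups stayed separate, as did those of 28.9% of the tested genes in this direction. With WT replicate 1 left out it was higher by 1.05 ± 0.361 log2 units (SE) and the call was lost (limma adjusted p = 0.0772). Leaving out any other library except WT replicate 2 also ended it, with limma adjusted p of 0.0780, 0.158 and 0.125 without Ela1-Myc replicate 1, 2 or 3 and 0.113 without WT replicate 3. Krt23 had the opposite sign. Its scaled values were 1.38, 2.44 and 2.04 in Ela1-Myc, against 3.16, 4.01 and 4.18 in WT, so that all 3 Ela1-Myc values lay below all 3 WT values, as for 17.2% of the tested genes. The log2 change of -0.71 ± 0.216 (SE) did not pass (limma adjusted p = 0.0553), and it passed under quantile normalization (log2 change -1.08, limma adjusted p = 0.0293) and on the median-of-ratios scale without WT replicate 1 (-0.90, 0.0431).

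**Figure D2:**
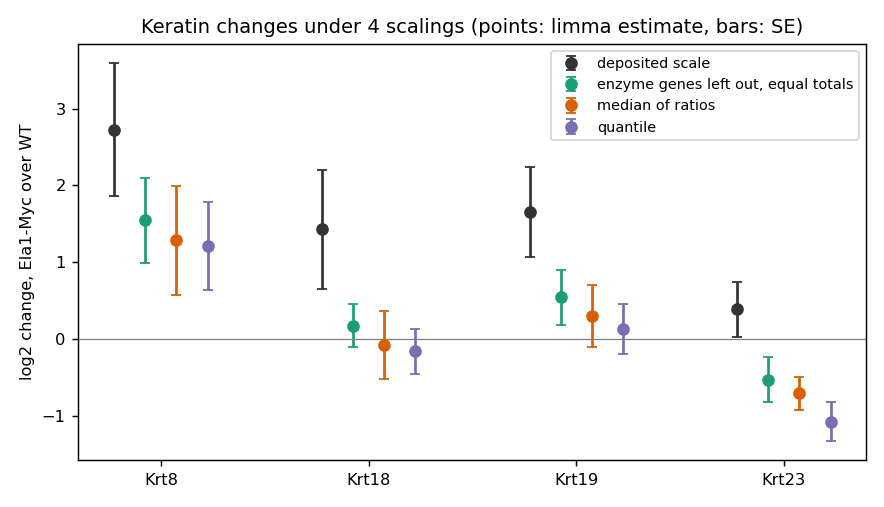
Log2 change of the 4 keratins above 0 in all 6 libraries, Ela1-Myc over WT, on the deposited scale and under the other scalings (points, limma estimates; bars, SE). Krt8 stays above 0 under each scaling shown, Krt18 lies near 0 under all but the deposited scale, and Krt23 lies below 0 under all but the deposited scale.

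A ratio of keratins within a library does not change when all values of that library are divided by a common number. The authors' adjustment is not explained. In 4463 rows each WT library holds 1 shared non-zero value while Ela1-Myc is at 0. A common divisor does not turn 0 into such a value. The WT adjustment thus appears to have been of another kind, and the ratios may carry it. The type II keratin Krt8 and its type I partner Krt18 were at nearly equal levels in Ela1-Myc, with Krt8 over Krt18 at 0.992, 1.05 and 1.06, against 0.233, 0.772 and 0.320 in WT. All 3 Ela1-Myc ratios lie above all 3 WT ratios, and WT replicate 2 is again the nearest. On the log2 scale the ratio was 0.05 ± 0.0521 in Ela1-Myc and -1.37 ± 0.896 in WT (SD, n = 3 each), a difference of 1.42, or 2.68-fold (p = 0.1 in an exact two-sided permutation test, the lowest possible with 3 libraries a group; Benjamini-Hochberg adjusted p = 0.30 over 3 ratios). The difference was between 1.06 and 1.92 when each library was left out in turn. A gene whose ratio to Krt18 was higher in all 3 Ela1-Myc libraries than in any WT library was not rare: this held for 15.9% of the 6994 other tested genes above 0 in all libraries. RefSeq also lists a pseudogene copy, Krt8-ps, on chromosome 7, and the sources used here do not say how reads shared with it were counted.

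Krt19 and Krt23 overlapped between the groups relative to Krt18, and Krt7 did not. Krt7 over Krt18 was 0.0375, 0.0873 and 0.0714 in Ela1-Myc, against 0.0213 and 0.0106 in WT replicates 2 and 3. Krt7 is listed at 0 in WT replicate 1, so its ratios were not tested, and no share over all genes was computed for them. Krt19 over Krt18 was 0.124, 0.286 and 0.256 in Ela1-Myc, against 0.178, 0.176 and 0.124 in WT (log2 difference 0.41; exact two-sided permutation p = 0.4, adjusted p = 0.40). Krt23 over Krt18 was 0.0199, 0.0432 and 0.0498 in Ela1-Myc, against 0.0837, 0.0464 and 0.0725 in WT (log2 difference -0.91; exact two-sided permutation p = 0.2, adjusted p = 0.30). Within the duct pair, Krt7 over Krt19 was 0.303, 0.305 and 0.279 in Ela1-Myc, against 0.121 and 0.0854 in WT replicates 2 and 3, while Krt7 is listed at 0 in WT replicate 1. Krt8 over Krt18, Krt7 over Krt18 and Krt7 over Krt19 were thus higher in each Ela1-Myc library than in any WT library with a value. Krt8 over Krt19 was not among the chosen ratios, and it overlapped between the groups. Krt8 and Krt19 had 90.1 and 24.4 in Ela1-Myc replicate 2, against 57.4 and 13.1 in WT replicate 2, where this ratio was higher. Summed over the 6 genes, type II over type I was 0.899, 0.857 and 0.862 in Ela1-Myc, against 0.184, 0.649 and 0.275 in WT (exact two-sided permutation p = 0.1, not adjusted). Krt8 and Krt18 make up most of these sums, so this largely repeats Krt8 over Krt18. No share over all genes was computed for it.

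**Figure D3:**
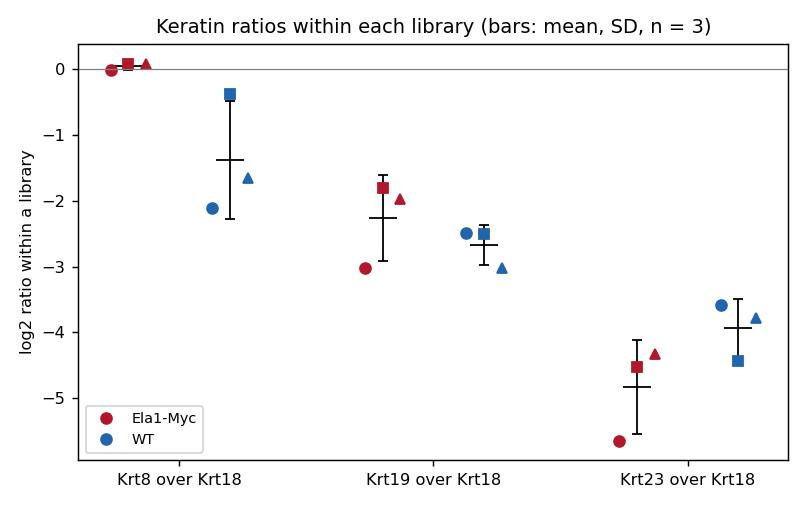
Log2 ratios of keratin levels within each library in Ela1-Myc (red) and WT (blue), with 1 symbol per library (circle, square and triangle for replicates 1, 2 and 3) and bars for the mean and SD (n = 3). Krt8 over Krt18 lies near 0 in the Ela1-Myc libraries and below 0 in every WT library, while the groups overlap for Krt19 and for Krt23 over Krt18.

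The shares of the duct pair and of the Krt8 and Krt18 pair in the keratin total overlapped between the groups. Krt7 and Krt19 together made up 7.41%, 15.1% and 13.4% of the summed level of the 6 genes in Ela1-Myc, against 11.9%, 9.78% and 8.77% in WT (exact two-sided permutation p = 0.5). Krt8 and Krt18 together made up 91.6%, 83.0% and 84.4% in Ela1-Myc, against 82.5%, 87.9% and 86.1% in WT (exact two-sided permutation p = 0.8). Krt20 and Krt23 together made up 0.982%, 1.88% and 2.18% in Ela1-Myc, against 5.60%, 2.32% and 5.09% in WT. These groups do not overlap (exact two-sided permutation p = 0.1), and how often that holds for other genes was not computed.

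The rank of a gene within its own library was counted from the highest of all 23099 symbols. It too does not change when all values of that library are divided by a common number, but like the ratios it may carry the WT adjustment. Krt8 stood at rank 320, 359 and 346 in Ela1-Myc, against 1523, 363 and 640 in WT, so all Ela1-Myc ranks were nearer the top (exact two-sided permutation p = 0.1), as for 21.6% of the tested genes. The margin over WT replicate 2 was small, at 359 against 363. Krt7 ranked 4745, 3078 and 4088 in Ela1-Myc, against 4953 and 7739 in WT replicates 2 and 3, and was listed at 0 in WT replicate 1, so its groups were separate too. Krt18 ranked 317, 372 and 361 in Ela1-Myc, against 422, 301 and 272 in WT (exact two-sided permutation p = 0.8). Krt19 ranked 1848, 1050 and 1237 in Ela1-Myc, against 1919, 1160 and 1381 in WT (exact two-sided permutation p = 0.7). Krt23 ranked 6799, 5155 and 5555 in Ela1-Myc, against 3457, 3182 and 2147 in WT, farther from the top in every Ela1-Myc library (exact two-sided permutation p = 0.1), as for 31.4% of the tested genes.

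Keratin levels were also set against other epithelial genes. For each library the mean log2 level of the 8 epithelial junction genes above 0 in all libraries, among them the cadherin Cdh1, was subtracted from the log2 level of each keratin. No pseudocount was added. The 8 include Grhl2, which is below the filter, with 0.572, 0.795 and 1.57 in Ela1-Myc against 0.0270, 0.706 and 0.637 in WT. Epcam and Cldn4 were left out because they are listed at 0 in WT replicates 1 and 3. Krt18 lay 3.53 ± 0.488 above them in Ela1-Myc and 3.54 ± 0.224 in WT (SD, n = 3 each; exact two-sided permutation p = 1). Krt8 lay 3.58 ± 0.452 above them in Ela1-Myc and 2.16 ± 1.02 in WT (SD, n = 3 each; exact two-sided permutation p = 0.2), with single values of 3.91, 3.78 and 3.07 in Ela1-Myc against 1.51, 3.33 and 1.64 in WT. Krt19 lay 1.27 ± 0.540 above them in Ela1-Myc and 0.86 ± 0.518 in WT (SD, n = 3 each; exact two-sided permutation p = 0.6). Krt23 lay at -1.30 ± 0.452 in Ela1-Myc and -0.40 ± 0.391 in WT (SD, n = 3 each; exact two-sided permutation p = 0.1), with no overlap between the groups. Over these 4 comparisons the lowest Benjamini-Hochberg adjusted p was 0.40, and no share over all genes was computed for them.

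Proteins of the next list anchor or remodel keratin filaments. Of the 16 genes of the list of filament partners and regulators 12 passed the filter, 5 of them were called higher and 7 were not called, with a median log2 change of 0.72, while 70.2% of all tested genes were called higher, with a median of 1.22. Sfn, the 14-3-3 sigma protein that binds keratins, had 2.36, 5.68 and 4.36 in Ela1-Myc, against 0.417, 0.855 and 0.265 in WT (log2 change 1.73, limma adjusted p = 0.000431). The laminin receptor subunit Itga6, the cytolinker Plec and the plakophilin Pkp2 were higher by 1.34, 1.06 and 0.92 log2 units (limma adjusted p = 0.0154, 0.00646 and 0.0143). Pnn, an RNA-processing and desmosome-associated protein, had 2.21, 1.83 and 4.85 in Ela1-Myc, against 0.418 and 0.110 in WT replicates 2 and 3, and was listed at 0 in WT replicate 1. Epiplakin Eppk1, a keratin-binding cytolinker that was too low for testing, had 0.279, 0.381 and 0.715 in Ela1-Myc, against 0.0219 and 0.0185 in WT replicates 2 and 3 and a listed 0 in WT replicate 1. On the median-of-ratios scale 1 of the 12 was higher and 1 lower, with a median of -0.07, beside 17.0% higher and 7.08% lower over all tested genes: Pnn was higher, and the desmosomal cadherin Dsg2 was lower by a log2 change of -0.76 (limma adjusted p = 0.0442).

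The other keratin genes were low. Of 45 further keratin genes, 3 had a mean of at least 1, and the highest mean was 1.24. Krt17, below that mean and so not tested, had 1.26, 1.15 and 1.41 in Ela1-Myc, against 0.141, 0.119 and 0.0292 in WT. The type II keratin Krt80 had 2.10, 1.801 and 1.803 in Ela1-Myc, against 0.279, 0.537 and 0.950 in WT (log2 change 0.89, limma adjusted p = 0.00763), and did not pass on the median-of-ratios scale (0.13, 0.680). The epidermal keratins Krt10 and Krt14 were highest in WT replicate 1, at 1.71 and 1.96, and their log2 changes of 0.22 and 0.14 did not pass (limma adjusted p = 0.458 and 0.651). Vim, the intermediate filament gene of mesenchymal and immune cells, had 63.1, 153.8 and 101.5 in Ela1-Myc, against 26.4, 16.4 and 1.36 in WT (log2 change 3.27, limma adjusted p = 0.00502), and did not pass on the median-of-ratios scale (1.85, 0.231). All 5 tested genes of the list of other intermediate filaments were higher on the deposited scale, and 1 of 5 on the median-of-ratios scale, the nuclear lamin Lmnb1, which was listed at 0 in every WT library. The shares over all tested genes were 70.2% and 17.0% on these scales, and they apply equally to the regulators that follow. Among 8 tested candidate regulators of keratin genes 6 were higher, and 3 on the median-of-ratios scale. These 3 were the AP-1 genes Jun and Junb, and Sp1, a general activator of GC-rich promoters. Jun was listed at 0 in WT replicates 1 and 3, and Junb in WT replicate 3. Sp1 had 2.48, 3.40 and 4.52 in Ela1-Myc against 0.434, 0.745 and 0.564 in WT (log2 change 1.48 and 0.60 on the 2 scales, limma adjusted p = 0.000569 and 0.0435).

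Markers of other cell types that make these keratins also differed in level on the deposited scale, and their part in the keratin values was not tested. Of 16 non-keratin duct markers 9 passed the filter, 7 were higher and 2 not called, with a median log2 change of 1.35, near the 70.2% called higher and the median of 1.22 over all tested genes. The summed level of the 16 was 220.5 to 375.0 in Ela1-Myc and 78.0 to 210.7 in WT. Most of that sum came from Spp1 and Muc1, which other cells of the pancreas also make, so it is no measure of duct content. Muc1 had 55.9, 48.8 and 66.2 in Ela1-Myc, against 68.8, 129.5 and 121.0 in WT. The water channel Aqp1 and the membrane glycoprotein Prom1 were higher by 1.61 and 1.36 log2 units and the RNA-binding protein Bicc1 by 1.04 (limma adjusted p = 0.00662, 0.0204 and 0.00877). The 2 not called were Sox9 and Muc1, with log2 changes of 0.42 and -0.85 (limma adjusted p = 0.187 and 0.302). Sox9 had 1.66, 1.26 and 2.79 in Ela1-Myc, against 0.820, 1.45 and 1.13 in WT. Its log2 change on the median-of-ratios scale was -0.48. Spp1 (osteopontin), which macrophages also make, had 107.0, 220.7 and 242.3 in Ela1-Myc against 57.2 in WT replicate 2 and a listed 0 in the other WT libraries. Tm4sf4 had 24.7, 14.9 and 18.0 in Ela1-Myc, against 4.99 and 1.02 in WT replicates 2 and 3 and a listed 0 in WT replicate 1. Car2, a carbonic anhydrase, had 1.55, 2.66 and 3.10 in Ela1-Myc, against 1.28 and 0.00403 in WT replicates 1 and 2 and a listed 0 in WT replicate 3. On the median-of-ratios scale 1 of the 9 was lower, the apical mucin Muc1 of acinar and duct cells (log2 change -2.36, limma adjusted p = 0.00490), and 8 were not called, with a median of 0.07.

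Mesothelial cells cover the pancreas and also make simple keratins. The summed level of 7 mesothelial markers was 10.1 to 31.9 in Ela1-Myc and 3.96 to 6.31 in WT, and 5 of 5 tested members were higher on the deposited scale, as were 70.2% of all tested genes. On the median-of-ratios scale limma called 0 of these 5, also at an unadjusted p under 0.05. Mesothelin Msln had 1.90, 8.74 and 3.60 in Ela1-Myc, against 0.397, 1.02 and 0.525 in WT. The 7 intestinal epithelial markers summed to 0.725 to 1.52 in Ela1-Myc and 0.113 to 0.567 in WT, below the filter for each gene, and the intestinal genes Cdx2, Sis and Fabp2 held only a placeholder, a listed 0 in each Ela1-Myc library and 1 value shared by many rows in each WT library, which says nothing of their level. The 8 squamous keratinocyte markers summed to 5.25 to 6.94 in Ela1-Myc and 3.02 to 6.44 in WT. Macrophage markers, of cells without simple keratins, summed to 480.7 to 1301 in Ela1-Myc and 0.582 to 57.8 in WT.

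**Figure D4:**
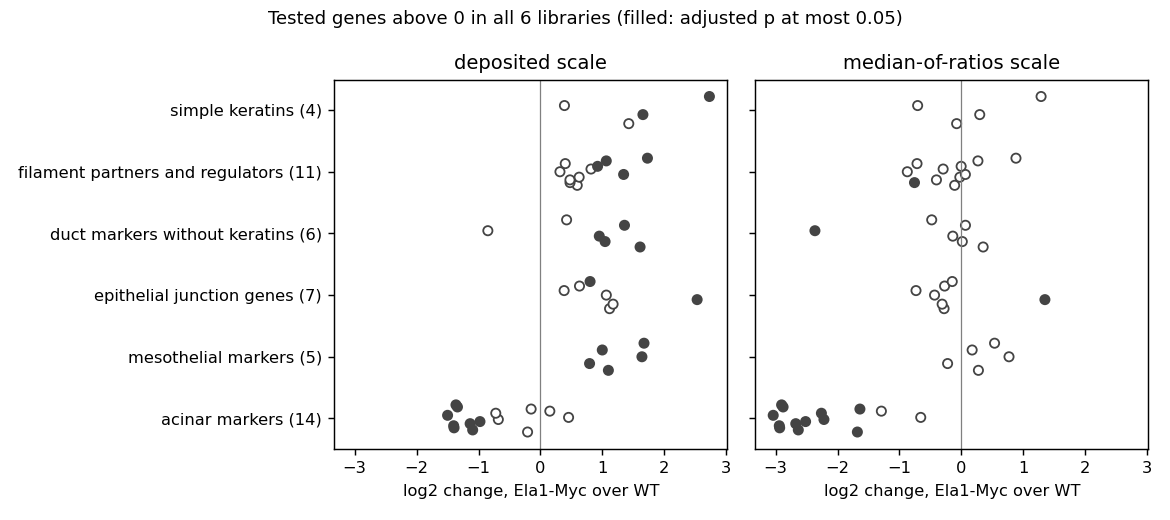
Log2 change, Ela1-Myc over WT, of tested genes above 0 in all 6 libraries, by list, on the deposited scale (left) and the median-of-ratios scale (right); each circle is 1 gene and filled circles passed the limma test. Keratins, filament partners and duct markers lie mostly above 0 on the left and around 0 on the right, while acinar markers lie mostly below 0 on both.

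The genes most like each keratin were sought among 6994 tested genes above 0 in all 6 libraries, by the mean absolute difference of log2(value + 1) over the 6 libraries after each gene was centred on its own mean. Closest to Krt8 were Slc25a5, a mitochondrial ADP/ATP carrier (mean difference 0.08), Rpl27 (0.11) and Park7 (0.11). Closest to Krt18 were Rpl17 (0.05), Rpl22l1 (0.06) and Lamtor2 (0.08), and closest to Krt19 were Mrps33, Syf2 and Ddx47 (0.12, 0.12 and 0.14). Closest to Krt23 were the receptor tyrosine kinase gene Kit (0.06), the plakophilin Pkp3 (0.08) and Fmo2 (0.08). Pkp3 is also on the list of filament partners and had 2.10, 4.14 and 4.33 in Ela1-Myc, against 1.55, 3.09 and 2.55 in WT. By this measure, which also counts how widely a gene varies, the partner genes Krt8 and Krt18 were not close. Their mean difference was 0.73, which put Krt18 at place 784 from Krt8 and Krt8 at place 6223 from Krt18. Both genes nonetheless placed the 6 libraries in the same order. Krt8 varied more widely, from 3.52 to 109.1, against 15.1 to 109.97 for Krt18.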

How the data were processed

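Polyadenylated RNA of 6 pancreas libraries was analysed. Per the file headers, the deposited values are an adjusted FPKM, 1 value per gene and library. Per the submitters' processing notes, the tools were affy, Bowtie, Cufflinks 2.0.2, TopHat2 2.0.4, FastQC 0.9.4 and CASAVA 1.8, and the build GRCm38 (mm10). The adjustment is not explained in the sources used here. All values were divided by 100000 to reach the usual FPKM range. Of the 23422 rows, those of 187 repeated symbols were reduced to the one highest on average. In 4463 rows each WT library repeats a single value while Ela1-Myc is at 0. None of the 6 simple keratins is among them, but 13 of the 45 other keratin genes are.

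The limma 3.58.1 test (R 4.3.3) was run on log2(value + 1) for the 8802 genes averaging 1 or more, with group alone as the factor and an intensity trend. A two-sided p adjusted by Benjamini-Hochberg at or under 0.05 was called. Fold changes on this scale understate the change of low genes. Ratios, ranks and shares were compared by exact permutation tests (scipy 1.17.1), and figures drawn with matplotlib 3.10.9. Nothing says that each library is a separate animal, and the p-values reflect only how far these samples spread, which may be technical. Groups follow the genotype labels. The members and gene lists were chosen with earlier results of these data known. Named genes are the 6 keratins, other keratins with a mean of at least 1, the 3 genes nearest each keratin and defining markers. Up to 6 called members each of the filament partner and duct lists are named too. Eppk1, Dsg2, Muc1, Sox9, Krt17, Vim, Lmnb1, Jun, Junb, Sp1, Gapdh, Grhl2, Epcam and Cldn4 were added after their values were seen. Alternatives were other scalings, pseudocounts, filters, variance models, RIN as a covariate and leaving out each library. Promoter sequences are from RefSeq, GRCm38.p6.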

Additional observations from a re-analysis of the deposited data

How the results depend on the processing

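The number of keratins called higher, 3 on the deposited scale, was 1 on the median-of-ratios scale (also with divisors from the tested genes alone), with the enzyme genes left out, with no filter and with RIN as a covariate, and 0 under quantile normalization and when the undivided values got a pseudocount of 1. It was between 1 and 4 when each library was left out, and between 0 and 2 when this was done on the median-of-ratios scale, an alternative chosen after seeing the data, as were the rank, the junction-gene measure and the ratio under quantile normalization. The number called lower, 0 by limma (0 also at an unadjusted p under 0.05), was 1 under quantile normalization, Krt23, and between 0 and 1 on the median-of-ratios scale with a library left out.

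With RIN as a covariate the calls of Krt8 and Krt19 were lost (limma adjusted p = 0.0932 and 0.0635) at log2 changes of 2.57 ± 1.28 and 1.99 ± 0.899 (SE), and Krt18 passed without the trend and with array weights (0.0380 and 0.00222). Over all alternatives the limma adjusted p ranged from 8.22e-07 to 0.160 for Krt7, 1.6e-05 to 0.554 for Krt8, 0.00222 to 0.919 for Krt18, 2.99e-05 to 0.955 for Krt19 and 0.0293 to 0.761 for Krt23. Signs turned for Krt18 and Krt23. Krt18 had log2 changes of -0.077 on the median-of-ratios scale, -0.058 with divisors from the tested genes and -0.16 under quantile normalization. On the median-of-ratios scale it had -0.22 and -0.10 without Ela1-Myc replicate 1 or 2, and -0.44 and -0.13 without WT replicate 1 or 3. Krt23 had -0.71, -0.69 and -1.08 under the same 3 scalings, -0.53 with the enzyme genes left out, and on the median-of-ratios scale -0.53, -0.80 and -0.70 without Ela1-Myc replicate 1, 2 or 3 and -0.90, -0.68 and -0.71 without WT replicate 1, 2 or 3. Krt8, Krt19 and Krt7 kept their sign in every alternative run. The cause of these turns was not tested beyond the scaling that makes them.

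Over all tested genes 6182 were higher and 21 lower. The median-of-ratios scale gave 1495 and 623 (1595 and 700 with divisors from the tested genes), quantile normalization 938 and 1371, and the enzyme genes left out 1871 and 394. A pseudocount of 1 on undivided values gave 3369 and 6, a mean of at least 5, with fewer genes tested, 1742 and 8, and RIN as a covariate 3998 higher. The lower genes numbered 32 with a pseudocount of 10, 41 without the trend and 132 with array weights. Leaving out each library gave 4549 to 7113 higher and 5 to 62 lower, while on the median-of-ratios scale the higher genes numbered 1163, 593 and 543 without Ela1-Myc replicate 1, 2 or 3 and 1593, 1851 and 839 without WT replicate 1, 2 or 3, and the lower genes 516, 165, 149, 579, 546 and 352 in the same order.

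With each library left out, the log2 ratio difference over Krt18 was between 1.06 and 1.92 for Krt8, between 0.18 (without Ela1-Myc replicate 2) and 0.78 (without Ela1-Myc replicate 1) for Krt19, and between -1.16 and -0.50 (without Ela1-Myc replicate 1) for Krt23; no sign turned. No paired analysis was possible because the labels number no replicates, and the numbers used here only name the libraries in accession order. Read depth is unknown, so no detection limit is given.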
